A study of Mus musculus with 12 samples.

Results

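The interferon-inducible GTPases described here are 8 genes: the guanylate-binding proteins Gbp2, Gbp3 and Gbp7, and the immunity-related GTPases Irgm1, Irgm2, Igtp, Ifi47 and Iigp1. They were chosen by name, as every probe set that the array's annotation gives to 1 of these genes. Earlier results of these data were known when the 8 genes were chosen. The shares of all genes set beside their counts are therefore a description and not an independent test. The annotation gave the 8 genes 11 of the 45101 probe sets, and all 8 were among the 18193 genes tested. The study measured RNA of cultured C57BL/6 mouse embryonic fibroblasts (MEFs) on 12 Affymetrix arrays, 2 in each of 6 groups, described by the series as biological duplicates. No label says that duplicates came from separate cultures, so p-values measure the spread between these arrays, which may be technical. S5 MEFs are Stat5-null MEFs that received a STAT5A vector by retroviral infection, KO MEFs are Stat5-null, and WT MEFs carry both Stat5 genes. Each genotype was given growth hormone for 120 minutes or received no stimulation. No label gives a vehicle control or KO MEFs with an empty vector, so genotype, retroviral infection and cell preparation cannot be told apart.

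Both GTPase families belong to cell-autonomous immunity, the defence a cell mounts against microbes inside it. In mouse cells they are switched on mainly by gamma interferon, in part through the transcription factor IRF1, and they gather on the membranes around parasites and bacteria that live in vacuoles. Guanylate-binding proteins attack these membranes, while Irgm1, Irgm2 and Igtp (also called Irgm3) are regulators that keep effector GTPases such as Ifi47 (Irgd) and Iigp1 (Irga6) inactive on the cell's own membranes. Growth hormone signals through the kinase JAK2 to STAT5A and STAT5B, which bind a short palindrome called a GAS element. The interferon-stimulated response element (ISRE) is the other main control element of these genes and binds IRF1 and a complex that holds STAT2 and IRF9.

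The sequences just upstream of the transcription starts show these letters for the genes whose response to growth hormone is described below. Each line gives the last 120 bases before the RefSeq start (build GRCm38.p6), 5′ to 3′ on the gene's own strand, with matches to GAAANNGAAA (ISRE letters, searched on both strands) or TTCNNNGAA (GAS letters, which read alike on both strands) in capitals.
Gbp2 (chr3:142620543-142620662, plus strand): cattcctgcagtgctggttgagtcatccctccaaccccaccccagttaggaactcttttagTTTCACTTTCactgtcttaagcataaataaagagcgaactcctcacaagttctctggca
Gbp3 (chr3:142559924-142560043, plus strand): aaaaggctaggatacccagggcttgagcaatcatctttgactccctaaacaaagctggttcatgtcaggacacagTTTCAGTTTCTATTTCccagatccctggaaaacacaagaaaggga
Gbp7 (chr3:142530216-142530335, plus strand): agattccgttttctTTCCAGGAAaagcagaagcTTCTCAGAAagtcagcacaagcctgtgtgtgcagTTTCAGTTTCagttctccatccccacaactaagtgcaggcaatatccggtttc
Irgm1 (chr11:48871421-48871540, minus strand): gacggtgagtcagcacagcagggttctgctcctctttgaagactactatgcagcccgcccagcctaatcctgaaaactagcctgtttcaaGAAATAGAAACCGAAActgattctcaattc
Irgm2 (chr11:58214857-58214976, plus strand): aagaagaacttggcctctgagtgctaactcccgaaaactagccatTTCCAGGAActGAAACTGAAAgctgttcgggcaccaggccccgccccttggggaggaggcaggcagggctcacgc
Igtp (chr11:58199436-58199555, plus strand): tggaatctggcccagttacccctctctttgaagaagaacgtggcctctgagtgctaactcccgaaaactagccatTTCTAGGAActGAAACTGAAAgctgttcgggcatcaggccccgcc
Ifi47 (chr11:49076467-49076586, plus strand): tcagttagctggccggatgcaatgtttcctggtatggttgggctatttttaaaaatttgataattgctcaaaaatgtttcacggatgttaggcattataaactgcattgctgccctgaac
ISRE letters lay in the 250 bases upstream of 6 of the 7 genes with a promoter sequence, all but Ifi47, and in 2.98% of 32841 mouse promoters of that length. GAS letters lay upstream of 3 of the 7, Gbp7 with 2 matches, Irgm2 and Igtp, and in 7.02% of the promoters. In Gbp7 the GAS letters started 106 and 87 bases before the transcription start, with the ISRE letters from 53 bases before it. In Irgm2 they started 75 bases and in Igtp 45 bases before it, and in both the ISRE letters began 11 bases further on. The 2 ISRE matches of Gbp3 overlap each other, as do the 2 of Irgm1, and no ISRE match overlaps a GAS match. A second annotated start of Gbp3, not shown, had neither motif in its window. Irgm2 and Igtp are neighbours with no protein-coding gene between them, and their upstream windows were 68.9% identical over 286 aligned columns, so their shared letters are not independent. Gbp7, Gbp3 and Gbp2 also lie in 1 cluster, with only Gbp2b between Gbp3 and Gbp2. A match is a description of these letters, not a binding site.

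**Figure D1:**
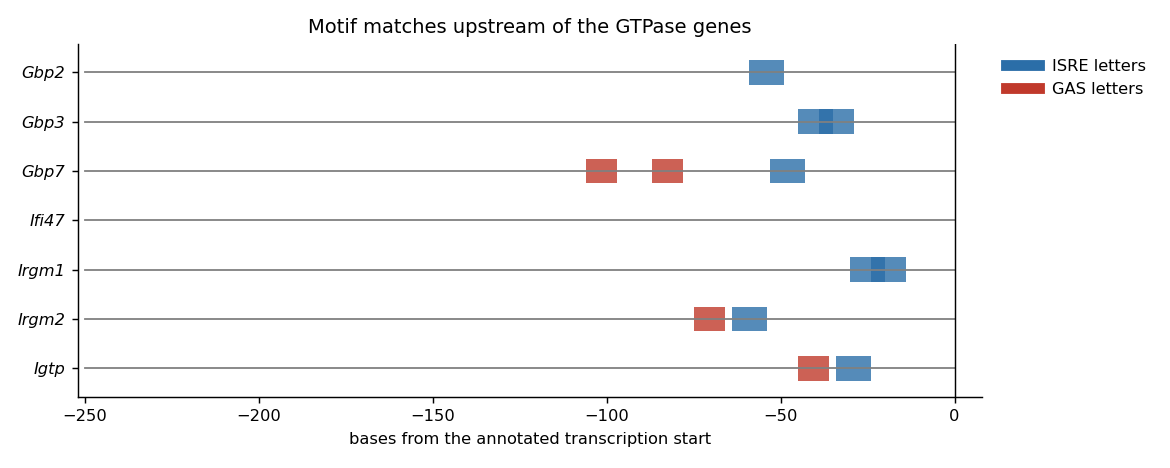
Positions of ISRE letters (blue) and GAS letters (red) in the 250 bases upstream of the first annotated start of 7 GTPase genes, with the distance from the start in bases on the x axis. GAS letters appear upstream of Gbp7, Irgm2 and Igtp, and Ifi47 has neither motif.

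Values are on a log2 scale, as read from their range since no label states the base, so a step of 1 doubles the signal. Array medians lay between 2.86 and 3.02, and duplicates correlated with r between 0.990 and 0.996 across 10947 genes, which are not independent replicates. With 2 arrays a group, the number of arrays limits the precision. Values below 4 form a low mode in which differences are compressed, so a group with both arrays below 4 is given as a bound ("at least"). The signal of Gapdh's 3′ probe set exceeded that of its 5′ probe set by 1.44 to 1.62 on S5 arrays and 0.94 to 1.11 on KO arrays, against 0.89 to 1.22 on WT arrays, so by this sign of RNA quality S5 arrays stood apart while KO and WT arrays overlapped. The same difference for Actb was 3.04 to 3.15 on S5 arrays and 2.71 to 3.07 on KO arrays, against 2.55 to 3.13 on WT arrays, with overlapping ranges, and the part of RNA quality in the results was not tested. Stat5a, a deleted gene, stood at 2.34 to 2.42 on the 4 S5 arrays and at 2.38 to 2.47 on the 4 KO arrays on 1 probe set, against 11.45 to 12.39 on the 4 WT arrays. Its other probe set stood at 9.04 to 9.90 on S5 arrays, with 2.19 to 2.25 on KO arrays and 2.23 to 2.38 on WT arrays. Stat5b stood between 1.93 and 2.01 on S5 and KO arrays on 1 probe set, against 8.98 to 9.39 on WT arrays, and its other probe set lay in the low mode on all 12 arrays. Fibroblast markers averaged 11.16 to 13.30 over 11 genes on every array, but some moved with genotype. Of the 11, 6 were lower and 1 higher in untreated S5 than in untreated WT MEFs, where 15.4% of all genes were lower. In untreated KO against untreated WT MEFs 3 were lower and 2 higher, where 13.3% of all genes were lower and 13.9% higher. Lum, which encodes a matrix proteoglycan, stood at 3.26 to 4.18 on S5 arrays and 2.77 to 3.42 on KO arrays, against 6.81 to 7.56 on WT arrays, and Thy1 stood at 2.20 to 5.09 on S5 arrays, against 14.07 to 14.39 on the others. The part of these markers in the GTPase differences between genotypes was not tested. Lum and Thy1 were named after their values were seen.

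Growth hormone raised 4 of the 8 GTPase genes in S5 MEFs: Gbp7, Irgm2, Igtp and Ifi47. Against this, 3.63% of all 18193 genes rose in that comparison. A gene is called where limma's Benjamini-Hochberg adjusted p over all genes is under 0.05. The median log2 change of the 8 genes was 1.68, against -0.02 over all genes. Of the guanylate-binding proteins, Gbp7, which helps to deliver antimicrobial oxidase in mouse macrophages, stood at 8.32 and 8.15 in S5 MEFs with growth hormone, against 5.36 and 5.28 in untreated S5 MEFs. Both treated arrays lay far above both untreated ones, and the change was 7.52-fold (log2 difference 2.91, SE 0.22, adjusted p = 0.000619). A second Gbp7 probe set stood at 2.42 and 2.81 with the hormone, against 2.21 and 2.21 without, which is inside the low mode. Gbp2, which gathers on Toxoplasma vacuoles, read 6.31 and 6.93, against 5.51 and 6.11 without hormone, and Gbp3, of the same cluster, read 5.56 and 4.80, against 4.55 and 3.16. Treated arrays were above untreated ones for both, but neither passed (log2 difference 0.81, adjusted p = 0.186 for Gbp2, and 1.33, adjusted p = 0.148 for Gbp3). Without untreated S5 array 1 the Gbp3 difference was 2.02 (adjusted p = 0.0398).

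Among the Irgm regulators in S5 MEFs, Irgm2 stood at 7.48 and 8.23 with growth hormone, against 5.66 and 5.99 without it. Igtp stood at 6.88 and 7.27, against 4.45 and 5.27. The groups did not overlap for either gene, and the rises were 4.07-fold for Irgm2 (log2 difference 2.02, SE 0.29, adjusted p = 0.00897) and 4.66-fold for Igtp (log2 difference 2.22, SE 0.28, adjusted p = 0.00549). Fitted on the S5 arrays alone, which left 2 called genes, neither passed (adjusted p = 0.0938 for Irgm2 and 0.0941 for Igtp), and Irgm2 missed without untreated S5 array 1 (adjusted p = 0.0536). Irgm1, a regulator also linked to autophagy, read 9.80 and 9.48, against 8.81 and 8.66, with a difference of 0.90 that did not pass (adjusted p = 0.0985). The effector Ifi47 was near the floor in untreated S5 MEFs and clearly measured after treatment, with 6.97 and 7.04 against 2.77 and 2.44. Its rise was at least 8.03-fold (adjusted p = 4.21e-05). Iigp1, an effector that coats Toxoplasma vacuoles, stayed in the low mode with 2.04 and 2.20 against 2.10 and 2.18, so no fold is given. The genes with GAS letters in the window searched were 3 of the 4 that rose in S5 MEFs, and Ifi47, the other, had neither motif there. They were 2 of the 5 that rose in WT MEFs, described below, where Gbp2, Gbp3 and Ifi47 rose without these letters. Igtp, which has them, narrowly missed the threshold there (adjusted p = 0.0522 by limma). A link between the letters and the responses was not tested.

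**Figure D2:**
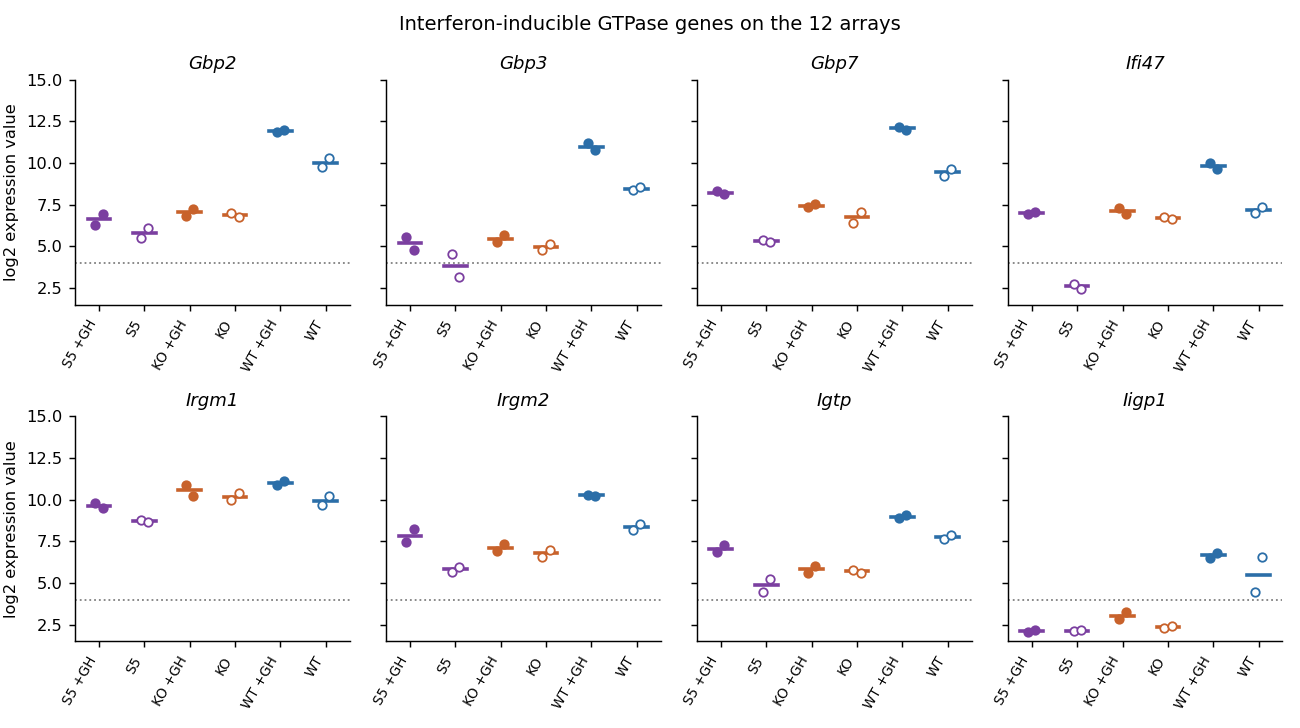
Log2 expression value of each GTPase gene on each of the 12 arrays, with filled points for growth hormone, open points for no stimulation, horizontal bars for group means and a dotted line at 4, below which values are compressed. Gbp2, Gbp3, Gbp7, Igtp and Iigp1 are highest on the 4 WT arrays, and Ifi47 lies below 4 only on untreated S5 arrays.

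In KO MEFs growth hormone raised or lowered none of the 8 GTPase genes by limma, where 0.225% of all genes rose and 0.308% changed in either direction. At an unadjusted p under 0.05 the count was 1, Gbp7, and each of the 21 alternative settings called 0 of the 8 genes. Gbp7 read 7.35 and 7.56 in treated KO MEFs, against 6.43 and 7.06 untreated, a log2 difference of 0.70 (95% interval 0.20 to 1.21, adjusted p = 0.300). Ifi47 read 7.30 and 6.96, against 6.79 and 6.66, a difference of 0.40 (95% interval -0.05 to 0.85, adjusted p = 0.592). Treated arrays were higher for both genes, by less than could be called. Irgm2 read 6.90 and 7.36, against 6.56 and 7.01, and Igtp read 5.59 and 6.05, against 5.81 and 5.59, both with overlapping groups. Their differences were 0.35 (95% interval -0.34 to 1.04) and 0.12 (95% interval -0.54 to 0.79). Over the 8 genes the median log2 difference was 0.40, against -0.02 over all genes, and Iigp1 was in the low mode in both groups.

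In WT MEFs growth hormone raised 5 of the 8 genes, Gbp2, Gbp3, Gbp7, Irgm2 and Ifi47, where 3.06% of all genes rose. The median log2 change was 1.90, against -0.04 over all genes. Gbp7 reached 12.16 and 12 with the hormone, against 9.25 and 9.65 without, a 6.20-fold rise (SE of the log2 difference 0.22, adjusted p = 0.000686). Gbp2 reached 11.85 and 12, against 9.75 and 10.32, a 3.70-fold rise (SE 0.31, adjusted p = 0.0146). Gbp3 reached 11.18 and 10.78, against 8.41 and 8.54, a 5.68-fold rise (SE 0.46, adjusted p = 0.0231). For these guanylate-binding proteins every treated array was above every untreated one. Irgm2 read 10.29 and 10.25, against 8.18 and 8.56 (3.74-fold, adjusted p = 0.0123), and Ifi47 read 10.03 and 9.63, against 7 and 7.34 (6.31-fold, adjusted p = 0.000397). Irgm1 read 10.89 and 11.13, against 9.69 and 10.21, and Igtp 8.91 and 9.06, against 7.66 and 7.86. Their groups did not overlap, but the differences of 1.06 and 1.22 did not pass (adjusted p = 0.0703 and 0.0522). Iigp1 read 6.51 and 6.81, against 4.49 and 6.54, with overlapping groups and an untreated pair that differed more than the treatment did (log2 difference 1.14, adjusted p = 0.328). Without untreated WT array 1 its difference was 0.12, and without array 2 it was 2.17 (adjusted p = 0.00216). The count of 5 became 2, Gbp7 and Ifi47, without either treated WT array or without untreated WT array 1.

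Macrophage markers, genes of immune cells that fibroblasts are not known for, moved with genotype. The mean log2 value of 18 such markers was 2.94 to 3.16 on S5 arrays and 3.81 to 4.17 on KO arrays, against 10.48 and 10.47 on treated and 8.98 and 10.38 on untreated WT arrays. Adgre1, the surface marker F4/80, stood at 2.28 to 2.63 on all S5 and KO arrays, against 10.97 and 10.69 on treated and 8.39 and 10.29 on untreated WT arrays. The complement gene C1qb stood at 2.18 to 2.26 on S5 arrays and 6.50 to 7.15 on KO arrays, against 13.41 to 14.04 on WT arrays. Of the 18 markers, 15 were below 4 on both arrays in each S5 group, 12 in treated and 11 in untreated KO MEFs, and 1 in treated and 2 in untreated WT MEFs. In these bulk samples fewer cells of a type and less RNA per cell cannot be told apart, and the part of these markers in the GTPase values of WT MEFs was not tested. Untreated WT array 1 was lower than array 2 in the mean of the markers and in all 8 GTPase genes. The share of all genes lower on array 1 was not counted, so this only describes single arrays. A link between the markers and the GTPase genes was not tested. Growth hormone raised 1 of the 18 markers in WT MEFs, Cd14 (log2 difference 2.69, adjusted p = 0.0302), a call lost without either treated WT array, untreated WT array 1 or either untreated S5 array (adjusted p between 0.0544 and 0.153). Cd14 and Adgre1 were named after their values were seen. None of the 7 lymphocyte markers measured was at 4 or above in any group.

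The size of the growth hormone response was then compared between genotypes by the interaction, the difference of 2 log2 changes. The response of KO MEFs was below that of WT MEFs for Gbp7 (difference -1.93, SE 0.30, adjusted p = 0.0353) and Ifi47 (-2.26, SE 0.27, adjusted p = 0.0105), 2 of 8 genes where 0.846% of all genes were lower. Leaving out any 1 array other than the 2 untreated KO arrays and untreated WT array 2 reduced this count to 1, and Gbp7 was the gene lost. The response of S5 MEFs was above that of KO MEFs for the same 2 genes, where 0.643% of all genes were higher: Gbp7 by 2.21 (SE 0.30, adjusted p = 0.0219) and Ifi47 by 4 (SE 0.27, adjusted p = 0.000915), or 2.60 with the low S5 group set to 4. That count was 1 without S5 array 1 of either condition or without treated KO array 1, and Gbp7 was also lost without untreated S5 array 2. On the other Gbp7 probe set, in the low mode in all S5 and KO groups, the S5 minus KO difference was 0.31 and was not called. Igtp (2.10, 95% interval 1.16 to 3.04, adjusted p = 0.0713) and Irgm2 (1.68, 95% interval 0.70 to 2.65, adjusted p = 0.158) did not pass. Of 21 alternative settings, Igtp passed in 3, among them a filter on dim genes (adjusted p = 0.0348) and a block for replicate number (adjusted p = 0.0485). Irgm2 passed in 1, the replicate block (adjusted p = 0.0393). Without untreated S5 array 2 the Igtp difference was 2.51.

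Between S5 and WT MEFs the response differed for 1 gene, Ifi47, higher by 1.74 in S5 (SE 0.27, adjusted p = 0.0190), where 1.41% of all genes were higher. With the low untreated S5 group set to 4 the difference was 0.35. The call was lost without either treated S5 array or without untreated S5 array 2, and without untreated WT array 2 the count was 2, with Iigp1 added (-2.18, adjusted p = 0.00820). For Gbp7 the S5 and WT responses differed by 0.28 (95% interval -0.44 to 0.99, adjusted p = 0.908), but by -1.84 when its 2 probe sets were averaged (adjusted p = 0.000384), of which 1 is in the low mode in S5 MEFs. The value for Irgm2 was 0.12 (95% interval -0.86 to 1.10, adjusted p = 0.988). Gbp2 (-1.08, 95% interval -2.09 to -0.06) and Gbp3 (-1.18, 95% interval -2.70 to 0.34) had smaller changes in S5 MEFs that did not pass (adjusted p = 0.331 and 0.555). With the mean of the 2 Gbp2 probe sets in place of the brighter one, the Gbp2 response was lower in S5 than in WT MEFs (difference -1.74, adjusted p = 0.0284) and lower in KO than in WT MEFs (difference -2.21, adjusted p = 0.0197). Any 2 of these interactions share the 4 arrays of a genotype.

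**Figure D3:**
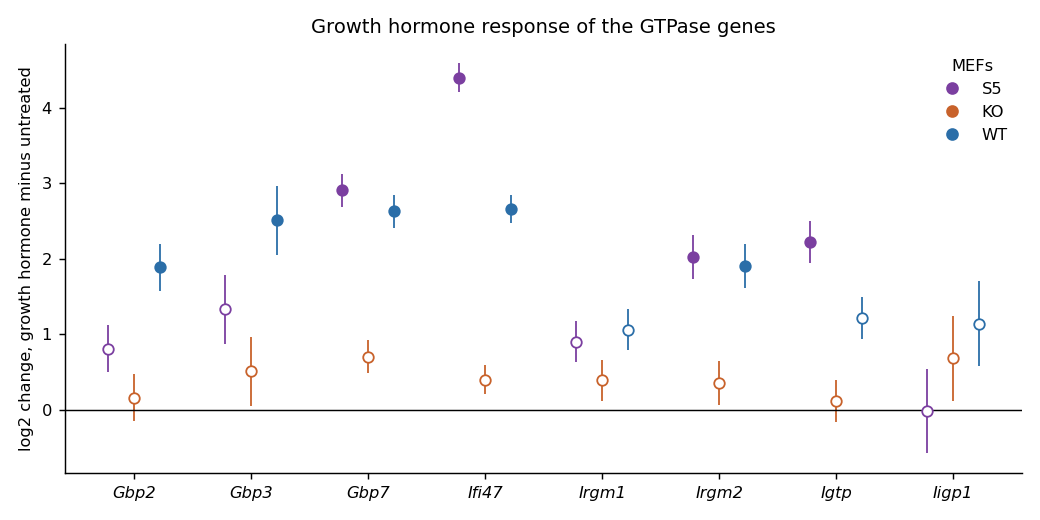
Log2 difference, growth hormone minus no stimulation, of each GTPase gene in S5, KO and WT MEFs, with SE bars from limma, filled symbols past the threshold of 0.05 and open symbols not past it. In KO MEFs all 8 differences lie between 0.12 and 0.70 and are open, and Ifi47 in S5 MEFs is the highest point at 4.40.

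Levels differed between genotypes before any hormone was given. In untreated KO MEFs 6 of the 8 genes were lower than in untreated WT MEFs (all but Ifi47 and Irgm1), where 13.3% of all genes were lower. Gbp2 stood at 6.99 and 6.78 in KO MEFs, against 9.75 and 10.32 in WT MEFs, 8.91-fold lower (log2 difference -3.16, SE 0.31, adjusted p = 0.000315). Gbp3, at 4.76 and 5.13 in KO against 8.41 and 8.54 in WT MEFs, was 11.5-fold lower (adjusted p = 0.00125), and Gbp7 was 6.50-fold lower (adjusted p = 0.000124). The fall was smaller for Irgm2, 3-fold (adjusted p = 0.00633), and for Igtp, 4.17-fold (adjusted p = 0.00162). Iigp1 was at least 2.86-fold lower (adjusted p = 0.00530), a call lost in a fit of the compared groups alone (adjusted p = 0.0889). The Iigp1 log2 difference was -3.15, with -4.18 without untreated WT array 1 and -2.13 without untreated WT array 2, both past the threshold. Irgm1 read 9.99 and 10.38 in KO MEFs, against 9.69 and 10.21 in WT MEFs, with overlapping groups (log2 difference 0.23, 95% interval -0.40 to 0.87, adjusted p = 0.685). Ifi47 differed by -0.45 (95% interval -0.90 to 0.00, adjusted p = 0.145). In the same comparison 15 of the 18 macrophage markers were lower in KO MEFs, and their part in these differences was not tested.

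With growth hormone, 7 of the 8 genes were lower in KO than in WT MEFs, where 13.8% of all genes were lower, and Irgm1 was the exception (log2 difference -0.43, 95% interval -1.07 to 0.20, adjusted p = 0.322). The folds were 46.0 for Gbp3, 29.5 for Gbp2 and 24.8 for Gbp7, the guanylate-binding proteins. They were 8.96 for Igtp, 8.81 for Irgm2 and 6.51 for Ifi47, and at least 6.31 for Iigp1, with adjusted p between 7.45e-06 (Gbp7) and 0.00243 (Iigp1).

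All 8 genes were lower in untreated S5 than in untreated WT MEFs, where 15.4% of all genes were lower. The measured folds ran from 2.32 for Irgm1 (adjusted p = 0.0106) to 18.7 for Gbp2 (adjusted p = 4.76e-05). Gbp3 was lower too (adjusted p = 0.000215), but its untreated S5 pair, 4.55 and 3.16, lies partly in the low mode, so no fold is given. The Gbp3 log2 difference of -4.62 was -5.32 without untreated S5 array 1 and -3.93 without untreated S5 array 2. Ifi47 was at least 9-fold and Iigp1 at least 2.86-fold lower, and the Iigp1 log2 difference of -3.37 was -4.40 without untreated WT array 1 and -2.35 without untreated WT array 2. The Irgm1 call was lost without untreated S5 array 2 (adjusted p = 0.0596) or untreated WT array 2 (adjusted p = 0.0669), and 16 of the 18 macrophage markers were lower in the same comparison. Against untreated KO MEFs, which carry no STAT5A vector, 5 of the 8 genes were lower in S5, where 11.9% of all genes were lower. Ifi47, at 2.77 and 2.44 in S5 against 6.79 and 6.66 in KO MEFs, was at least 6.61-fold lower (adjusted p = 4.39e-06). Irgm1, at 8.81 and 8.66 in S5 against 9.99 and 10.38 in KO MEFs, was 2.73-fold lower (adjusted p = 0.00596). Gbp7 was 2.69-fold lower (adjusted p = 0.00213), Gbp2 2.10-fold (adjusted p = 0.0371) and Irgm2 1.94-fold (adjusted p = 0.0497). In the same comparison 3 of the 18 macrophage, 4 of the 11 fibroblast and 2 of the 5 epithelial markers were lower in S5 MEFs, 1 fibroblast and 1 of the 5 endothelial markers were higher, and their part in these differences was not tested. The epithelial genes were the keratins Krt18, at least 14.8-fold lower (adjusted p = 3.24e-05), and Krt19, at least 3.64-fold lower (adjusted p = 0.000269). The endothelial gene was the receptor Tek, at least 40.8-fold higher (adjusted p = 1.78e-05), and these 3 genes were named after their values were seen. Gbp2 and Irgm2 lie close to the threshold. Of 21 alternative settings, Gbp2 passed in 14 and Irgm2 in 6. Both calls were lost with array weights (adjusted p = 0.0751 for Gbp2 and 0.0729 for Irgm2), where the count of GTPase genes was 3. Of the 4 genes that growth hormone raised in S5 MEFs, Gbp7, Irgm2 and Ifi47 were among these 5, and Igtp was lower by a log2 difference of -0.84 that did not pass (adjusted p = 0.0674).

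With growth hormone, S5 MEFs were higher than KO MEFs for Gbp7 (1.72-fold, adjusted p = 0.0304) and Igtp (2.39-fold, adjusted p = 0.0131) and lower for Irgm1 (1.91-fold, adjusted p = 0.0368). That is 3 of 8 genes where 28.9% of all genes differed, 15% higher and 13.9% lower. Ifi47 read 6.97 and 7.04 in treated S5 MEFs, against 7.30 and 6.96 in treated KO MEFs, with overlapping groups and a log2 difference of -0.12 (95% interval -0.57 to 0.33, adjusted p = 0.719). The count of 3 fell to 0 without treated S5 array 2 or treated KO array 1, and to 1 without either untreated S5 array. All 8 genes were lower in treated S5 than in treated WT MEFs, where 16.7% of all genes were lower. The measured folds ran from 2.59 for Irgm1 (adjusted p = 0.00540) to 55.8 for Gbp3 (adjusted p = 5.97e-05), and Iigp1 was at least 6.31-fold lower.

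**Figure D4:**
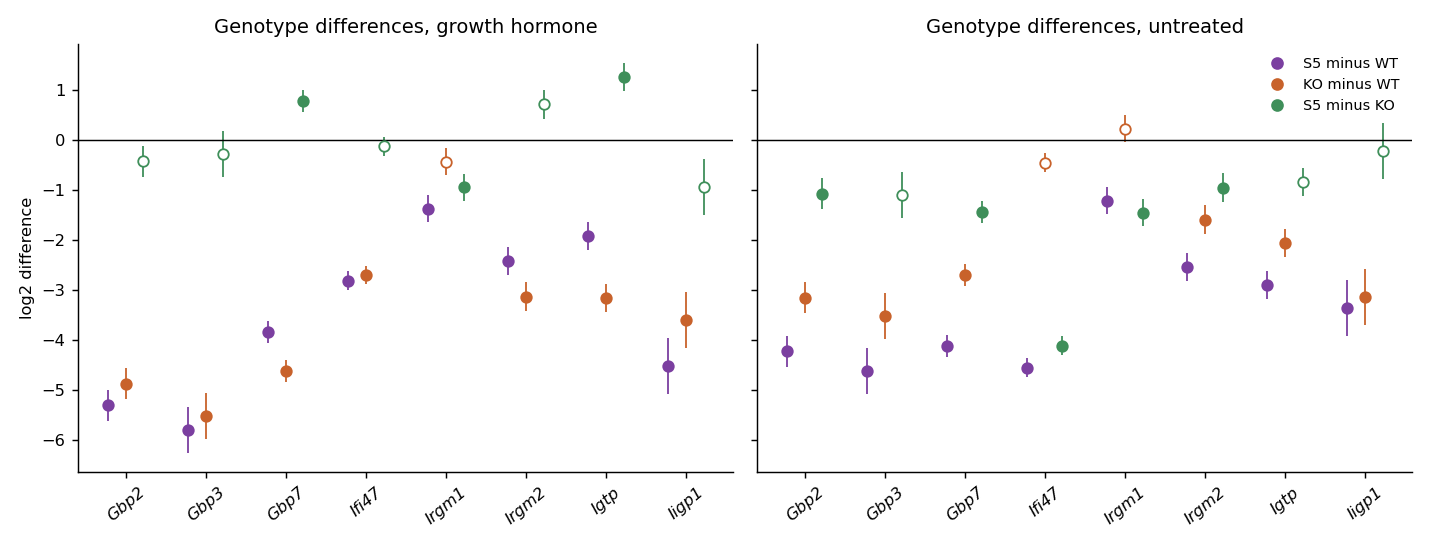
Log2 difference between genotypes for each GTPase gene with growth hormone (left) and without stimulation (right), as S5 minus WT, KO minus WT and S5 minus KO, with SE bars from limma and open symbols for values not past the threshold of 0.05. Among the differences against WT, those of Gbp3 are the lowest in both panels and those of Irgm1 lie nearest to 0.

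Across the 12 arrays the closest pair was Gbp7 and Irgm2 (Pearson r = 0.988), and the least alike was Irgm1 and Igtp (r = 0.573). The arrays fall into genotypes, so these values describe shared group levels. Among 5745 other genes with a group mean of 4 or more and a range of group means of at least 1, the 3 most like each GTPase gene were as follows. Gbp2 was most like Plek, Ccl5 and Hunk (r = 0.984, 0.983 and 0.983), Gbp3 most like Ccl5, Smim3 and Chchd4 (r = 0.986, 0.981 and 0.974), and Gbp7 most like Tsr1, Tbrg4 and Cxcl10 (r = 0.974, 0.968 and 0.967). Irgm1 was most like Smurf1, Tmem200a and Clec2d (r = 0.966, 0.949 and 0.944), Irgm2 most like Tsr1, Klf10 and Cxcl10 (r = 0.962, 0.959 and 0.959), and Igtp most like AU020206, Klf10 and Zfp948 (r = 0.967, 0.959 and 0.954). Tsr1 and Cxcl10 were thus shared by Gbp7 and Irgm2, and Klf10 by Irgm2 and Igtp. Ifi47 was most like Ccl7, Nfkbiz and Cdk6 (r = 0.971, 0.968 and 0.966), and Iigp1 most like Arap3, Pld4 and Plek (r = 0.988, 0.985 and 0.984).

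Gbp2, Gbp7 and Iigp1 each had a second, dimmer probe set. Gbp2 on its other probe set, which unlike the one used does not carry the suffix that Affymetrix gives to probes shared between genes, read 11.74 and 11.60 in treated against 8.66 and 8.74 in untreated WT MEFs. That is a log2 difference of 2.97 (adjusted p = 0.00345 over all probe sets), larger than the 1.89 of the probe set used. The other Gbp7 probe set read 7.09 and 7.63 in treated WT MEFs, against 3.23 and 2.76 in untreated WT MEFs (log2 difference 4.37, adjusted p = 0.000108), and 2.21 to 2.81 on all S5 and KO arrays. For Iigp1 it read 5.30 and 3.88 in treated WT MEFs, against 2.54 and 2.98 in untreated WT MEFs (log2 difference 1.83, adjusted p = 0.0540). Guanylate-binding proteins are near-identical in parts, and which probes read more than 1 of them was not tested.

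Interferons are the ligands that act upstream of the GTPase genes. All 6 interferon genes measured lay below 4 on all 12 arrays and none passed limma in any of the 12 comparisons, also at an unadjusted p under 0.05 (0 in each). Ifnb1 stood between 2.03 and 2.08 and Ifng, the gamma interferon gene, between 2.21 and 2.35. Of the receptor and signalling genes, 14 were measured, and growth hormone raised 2 of them in S5 MEFs, none in KO MEFs (0 by limma, 3 at an unadjusted p under 0.05) and 6 in WT MEFs. Irf1, the transcription factor that drives many GTPase genes, stood at 9.51 and 9.41 in treated S5 MEFs, against 7.19 and 7.46 in untreated S5 MEFs (4.38-fold, adjusted p = 0.00164). It reached 10.56 and 10.64 in treated WT MEFs, against 7.45 and 7.58 in untreated WT MEFs (8.51-fold, adjusted p = 0.000214). In KO MEFs Irf1 read 7.86 and 7.73, against 7.32 and 6.66, a log2 difference of 0.80 (adjusted p = 0.201) that passed without untreated KO array 1 (1.13, adjusted p = 0.0319). The Irf1 response was lower in KO than in WT MEFs (difference -2.29, adjusted p = 0.0117) and higher in S5 than in KO MEFs by 1.33, which did not pass (adjusted p = 0.0974) except without untreated KO array 2 (1.66, adjusted p = 0.0146). Stat2, part of the complex that binds ISREs, rose 2.28-fold in S5 MEFs (adjusted p = 0.0110), a call lost without treated array 1 (adjusted p = 0.0586) or untreated array 2 (adjusted p = 0.0742) of S5, and its difference in WT MEFs was 0.40 (adjusted p = 0.298). Its partner Irf9 was 2.26-fold lower in untreated KO than in untreated WT MEFs (adjusted p = 0.00415).

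Of the 6 feedback genes, growth hormone raised 2 and lowered 1 in S5 MEFs, changed none in KO MEFs (0 by limma, 1 at an unadjusted p under 0.05), and raised 1 and lowered 1 in WT MEFs. Socs3, an inhibitor of cytokine receptors, stood at 11.88 and 11.36 in treated S5 MEFs, against 8.77 and 9.41 in untreated S5 MEFs (5.78-fold, adjusted p = 0.00397). In WT MEFs it read 12.08 and 12, against 11.15 and 10.73, a difference of 1.10 that did not pass (adjusted p = 0.0822). Ptpn2, a phosphatase that acts on JAK kinases and STATs, rose 1.35-fold in S5 MEFs (adjusted p = 0.0101) and 1.47-fold in WT MEFs (adjusted p = 0.00393). The S5 call was lost without treated S5 array 1 (adjusted p = 0.0580) or untreated S5 array 2 (adjusted p = 0.0554), and neither passed when its probe sets were averaged (adjusted p = 0.483 in S5 and 0.394 in WT). In KO MEFs the Ptpn2 log2 difference was 0.33 (95% interval 0.17 to 0.48), with both treated arrays above both untreated ones, and did not pass (adjusted p = 0.122). Its response differed by 0.11 for S5 minus KO (95% interval -0.11 to 0.32). For KO minus WT it differed by -0.23 (95% interval -0.45 to -0.02, adjusted p = 0.480), and neither difference was called. Pias1, an inhibitor of STAT signalling, fell 1.51-fold in S5 MEFs (adjusted p = 0.00343), and did not pass when its probe sets were averaged (adjusted p = 0.290). It fell 1.24-fold in WT MEFs (adjusted p = 0.0425), a call past the threshold in 5 of 21 alternative settings. Usp18, an interferon-induced brake on the type I receptor, was at least 18.7-fold lower in untreated KO than in untreated WT MEFs (adjusted p = 0.000395) and 16-fold lower in untreated S5 than in untreated WT MEFs (adjusted p = 0.000832). The Usp18 log2 difference ran from -5.74 without untreated WT array 1 to -4.56 without untreated WT array 2 for KO minus WT, and from -4.59 to -3.41 for S5 minus WT.

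Of 8 other GTPase genes of these families and the Mx family measured, 3 rose in WT MEFs. None was called in S5 or KO MEFs (0 each by limma, and 0 in S5 and 1 in KO at an unadjusted p under 0.05). All of them but Irgq were in the low mode in every S5 and KO group, so a response there could hardly be seen. Gbp6 stood at 9.25 and 9.40 in treated WT MEFs, against 4.59 and 4.78 in untreated WT MEFs, a 24.9-fold rise (adjusted p = 1.05e-07), and lay between 2.51 and 2.70 on all S5 and KO arrays. Mx1, an antiviral GTPase, rose at least 6.38-fold to 7.01 and 6.34 in treated WT MEFs, against 2.46 and 2.71 in untreated WT MEFs (adjusted p = 4.50e-05). The Gbp6 response was lower than in WT MEFs in S5 (difference -4.55, adjusted p = 1.44e-06) and in KO MEFs (difference -4.63, adjusted p = 1.27e-06). For Mx1 these differences were -4.08 in S5 (adjusted p = 0.000393) and -4.13 in KO (adjusted p = 0.000486), or -2.67 in each with the low groups set to 4. Both genes were in the low mode in all S5 and KO groups, and Mx1 also in untreated WT MEFs. Irgq, a relative of the IRG family, rose 1.43-fold in WT MEFs (adjusted p = 0.00839).

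**Figure D5:**
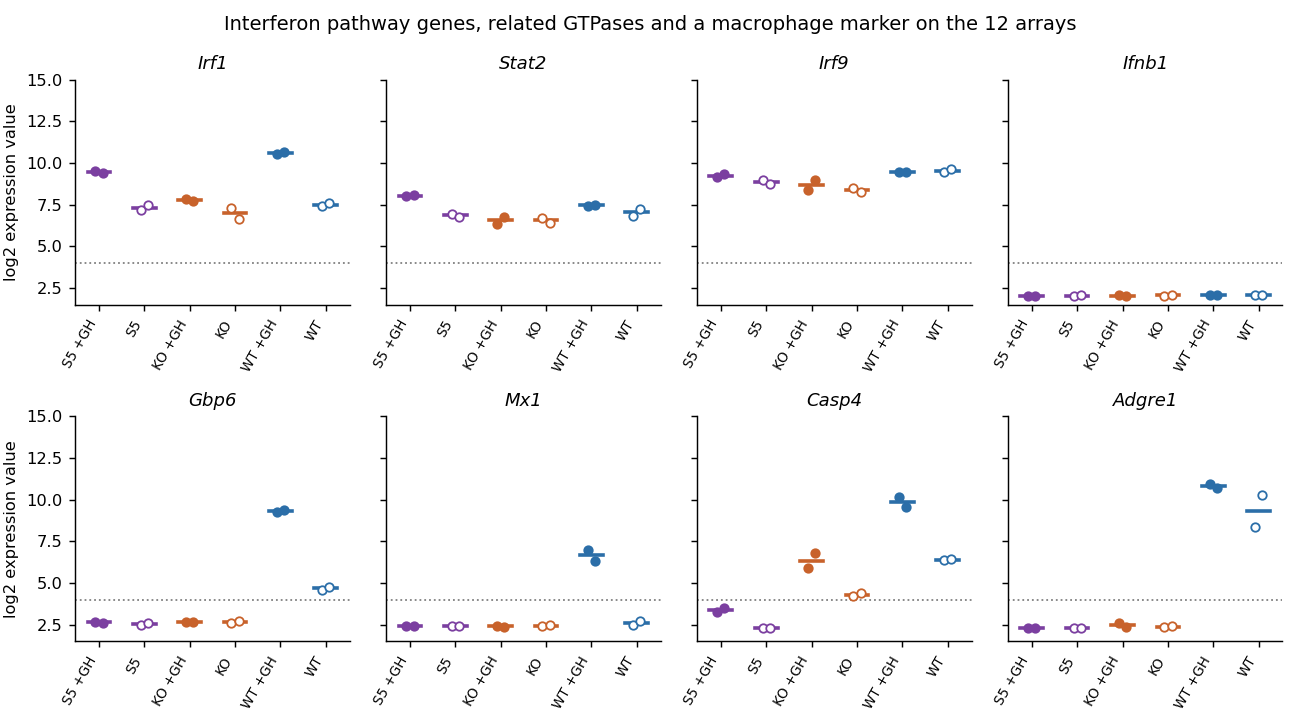
Log2 expression values on the 12 arrays of Irf1, Stat2, Irf9 and Ifnb1 (top) and of Gbp6, Mx1, Casp4 and the macrophage marker Adgre1 (bottom), with filled points for growth hormone, open points for no stimulation, bars for group means and a dotted line at 4. Irf1 is higher with growth hormone in S5 and WT MEFs, Gbp6 and Mx1 are above 5 only in treated WT MEFs, and Ifnb1 is near 2 on every array.

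Of 5 inflammasome genes, through which guanylate-binding proteins trigger cell death, 3 rose with the hormone in WT MEFs. None was called in S5 or KO MEFs (0 each by limma, and 1 each at an unadjusted p under 0.05). All of them but Aim2 were in the low mode in both S5 groups, and Casp1 and Nlrp3 also in both KO groups. A response there could hardly be seen. Casp4, the sensor of bacterial lipopolysaccharide in the cytosol, stood at 10.15 and 9.59 in treated WT MEFs, against 6.36 and 6.46 in untreated WT MEFs (11-fold, adjusted p = 0.000939). In KO MEFs it read 5.89 and 6.82, against 4.21 and 4.39, a log2 difference of 2.06 that missed the threshold (adjusted p = 0.0532) and passed without treated KO array 1 (adjusted p = 0.00946). Gsdmd, which forms the death pore, rose 1.96-fold in WT MEFs (adjusted p = 0.00893), and in untreated S5 MEFs it was at least 11.7-fold lower than in untreated KO MEFs (adjusted p = 2.83e-07). Nlrp3, an inflammasome sensor, read 8.58 and 8.11 in treated WT MEFs, against 2.42 and 4.18 in untreated WT MEFs (log2 difference 5.05, adjusted p = 0.00150). The untreated pair lies partly in the low mode, so no fold is given, and the Nlrp3 difference was 4.16 without untreated WT array 1 and 5.93 without untreated WT array 2. The call was lost in a fit of the WT arrays alone (adjusted p = 0.0894). Of 13 autophagy genes, some of which help to place the GTPases on vacuoles, 1 rose with the hormone in WT MEFs and none in S5 or KO MEFs (0 each by limma, and 3 in S5 and 0 in KO at an unadjusted p under 0.05). That gene was the cargo receptor Sqstm1, which rose 1.71-fold (adjusted p = 0.00390). In untreated KO MEFs 7 of the 13 were higher than in untreated WT MEFs, where 13.9% of all genes were higher, among them Gabarapl2 (1.62-fold, adjusted p = 0.00522) and Map1lc3b (1.17-fold, adjusted p = 0.0136), both proteins that coat autophagosomes. The Map1lc3b call was lost without untreated KO array 1 (adjusted p = 0.0806) or untreated WT array 2 (adjusted p = 0.0777).

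Of 18 other gamma interferon targets, 9 rose with growth hormone in WT MEFs, 2 in S5 MEFs and 1 in KO MEFs. Cxcl10, a chemokine, rose in S5, KO and WT MEFs and was the gene called in KO MEFs. Cxcl10 stood at 8.27 and 8.34 in treated S5 MEFs, against 2.30 and 2.08 in untreated S5 MEFs, a rise of at least 19.8-fold (adjusted p = 1.97e-06). In KO MEFs it read 6.16 and 6.37, against 2.81 and 2.42, at least 4.80-fold (adjusted p = 0.000159), a call lost in a fit of the KO arrays alone (adjusted p = 0.241). In WT MEFs it read 13.78 and 13.82, against 8.91 and 8.90, a 29.7-fold rise (adjusted p = 1.77e-06). The Cxcl10 response was higher in S5 than in KO MEFs by 2.47 (adjusted p = 0.00204), with the untreated groups of both in the low mode. The other gene that rose in S5 MEFs was Psmb10, an immunoproteasome subunit (1.59-fold, adjusted p = 0.0176), named after its value was seen. That call was lost without any 1 of the 4 S5 arrays (adjusted p between 0.0556 and 0.108). Cxcl9 and Cxcl11, the related chemokines, rose at least 7.75-fold and 8.12-fold in WT MEFs (adjusted p = 2.49e-08 and 6.90e-09) and lay between 2.33 and 2.57 on every S5 and KO array. Psmb8, another immunoproteasome subunit, rose 4.04-fold in WT MEFs (adjusted p = 0.000438), and H2-K1, which presents antigen, rose 1.66-fold (adjusted p = 0.00669).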

How the data were processed

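The 12 arrays are 1-colour Affymetrix expression arrays. The deposited values are 1 log2 value per probe set and array, made by the authors with GCOS and RMA per the submitters' processing notes. Settings and versions are not given in the sources used here, and the log base was taken from the values. The tests used 34945 of the 45101 probe sets, without 64 controls and those that the annotation gives to no gene (9160) or to more than 1 (932). The probe set with the highest mean stood for each of 18193 genes. limma 3.58.1 in R 4.3.3 (lmFit, eBayes) modelled the 6 group means over all 12 arrays, two-sided, with Benjamini-Hochberg adjustment over all genes and a threshold of 0.05. The fit was tested on simulated data. Precision is limited by having 2 arrays a group.

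The members and lists were chosen with earlier results of these data known, and the bound of 4 was set after the values were seen. Named were all members, Stat5a, Stat5b, Irf1, Ifnb1 and Ifng, the 3 genes most like each member, and from each list genes among the 6 with the smallest adjusted p in any comparison, of which those described were chosen after their values were seen. Exceptions are stated. Alternatives changed the normalization, array weights, prior, arrays fitted, probe set summary, dim-gene filter, replicate block and each array left out.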

Additional observations from a re-analysis of the deposited data

Results flagged for a closer look

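The growth hormone response of 2 genes differed between genotypes by the interaction term of the fit. For Gbp7, which rose in S5 and WT MEFs, the response differed by -1.93 for KO minus WT (adjusted p = 0.0353, past the threshold in 9 of 21 alternative settings) and by 2.21 for S5 minus KO (adjusted p = 0.0219). On the other Gbp7 probe set, in the low mode in all S5 and KO groups, the S5 minus KO difference was 0.31. For Ifi47, the response differed by -2.26 for KO minus WT (adjusted p = 0.0105), by 4 for S5 minus KO (adjusted p = 0.000915) and by 1.74 for S5 minus WT (adjusted p = 0.0190). With untreated S5 MEFs, whose Ifi47 values are in the low mode, set to 4, the last 2 values were 2.60 and 0.35.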

How the results depend on the processing

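Groups of 2 arrays and the compression of values below 4 limit these results. Over the 8 genes, 12 comparisons and 21 alternatives, 1890 results kept their direction and side of the threshold, 83 lost the call, 30 gained it and 13 changed sign. For the other genes named, 1142 kept both, 70 lost the call, 6 gained it and 0 changed sign.

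Array weights gave 1 called member for the KO minus WT effect and 3 for S5 minus KO untreated. Fits of only the groups compared gave 2 for growth hormone in S5, 2 in WT, 0 for the KO minus WT effect, 1 for the S5 minus KO effect, 3 for S5 minus KO untreated and 1 for S5 minus KO with growth hormone. The mean of probe sets gave 3 for the S5 minus WT effect, where the Gbp7 difference was -1.84, against 0.28 with its brighter probe set. Leaving out 1 array gave 4 to 4 members for growth hormone in S5, 0 in KO and 2 to 6 in WT. It gave 1 to 2 for the KO minus WT effect, 1 to 2 for the S5 minus KO effect and 0 to 2 for the S5 minus WT effect. It gave 3 to 5 for S5 minus KO untreated, 7 to 8 for S5 minus WT untreated and 0 to 4 for S5 minus KO with growth hormone. The cause of these changes was not tested.

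Members whose sign changed when 1 array was left out were none of them called. Growth hormone differences ranged from -0.10 to 0.06 for Iigp1 in S5 (0.02 without untreated array 2), from -0.06 to 0.38 for Gbp2 in KO and from -0.11 to 0.35 for Igtp in KO. The KO minus WT effect ranged from -1.48 to 0.57 for Iigp1. The S5 minus WT effect ranged from -0.42 to 0.10 for Irgm1 and from -0.25 to 0.50 for Irgm2 (-0.04 without untreated S5 array 1, -0.07 without untreated WT array 2). KO minus WT untreated ranged from -0.02 to 0.49 for Irgm1, and S5 minus KO with growth hormone from -0.66 to 0.10 for Gbp3 and -0.29 to 0.05 for Ifi47.

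Replicate numbers were not treated as a pairing in the main fit. Same-numbered arrays of 2 groups deviated with correlations of -0.36 (treated and untreated KO arrays) to 0.20 (untreated KO and untreated WT arrays). Whether the numbers pair arrays, or are crossed in KO MEFs, cannot be told from these values. With the replicate block 4 members were called for the S5 minus KO effect. Crossing the numbers of the treated KO arrays, chosen after the data were seen, called 0 members and 51 genes, against 56 with no block. Over all genes, calls ranged from 532 to 2914 around 1433 for growth hormone in S5, from 0 to 140 around 56 in KO and from 266 to 1325 around 1092 in WT. They ranged from 116 to 355 around 231 for the KO minus WT effect, from 114 to 358 around 205 for S5 minus KO and from 363 to 827 around 532 for S5 minus WT. Every probe set on its own gave 7452 against 4936 for KO minus WT untreated, 7784 against 4989 for S5 minus KO untreated and 9946 against 6307 for S5 minus WT untreated. With growth hormone it gave 8713 against 5256 for S5 minus KO (3494 with only the groups compared) and 11006 against 6713 for S5 minus WT. Centring arrays on their medians moved the share of higher calls to 32.2% from 46.1% for growth hormone in S5 and to 37.2% from 51.8% for S5 minus KO with growth hormone.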
